A study of Mus musculus with 17 samples.

Results

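STAG2 and p130 were mapped by CUT&RUN in urothelium of mice with an intact Stag2 gene, and the sites of both antibodies are compared here: 2 STAG2-WT libraries (replicates 1 and 2) against 3 p130-WT libraries (replicates 1 to 3), which is 5 of the 15 libraries of the series that have a peak list. Protein-coding genes on chromosomes 1 to 19 were used, and a gene end was marked in a library if that library had a peak summit no more than 500 bp from the start or the end of the gene. Gene ends were then sorted into 3 classes: marked in both STAG2-WT libraries and in no p130-WT library (STAG2-only), marked in all 3 p130-WT libraries and in no STAG2-WT library (p130-only), and marked in all 5 (shared). With the peaks as deposited, the 20665 genes gave 768 STAG2-only, 240 p130-only and 1964 shared ends, 2972 in all. The same sorting of distal regions, at least 5000 bp from any gene end, gave 15855 STAG2-only, 5557 p130-only and 2257 shared regions out of 998909.

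All 5 libraries came from peeled urothelium of Stag2-WT mice, with about 500000 cells per condition, taken 1 week after TMX induction. Libraries of Stag2-KO mice given the same induction (2 with the STAG2 antibody, STAG2-KO, and 3 with the p130 antibody, p130-KO) and 5 libraries with an antibody against LIN54 (2 LIN54-KO and 3 LIN54-WT) had no part in the sorting and were read as held-out libraries. The labels call the libraries biological replicates and do not name the driver of recombination or the age of the mice. Both STAG2-WT libraries belong to batch 1, p130-WT replicate 1 to batch 2 and p130-WT replicates 2 and 3 to batch 3, so antibody and batch cannot be told apart in any comparison of STAG2 with p130. The LIN54 libraries and the STAG2-KO libraries are of batch 1, and the p130-KO libraries are of batch 3.

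STAG2 belongs to cohesin, a ring-shaped complex that holds sister chromatids together and extrudes chromatin loops, and it is found at promoters, enhancers and sites of the insulator protein CTCF. p130, encoded by Rbl2, is the pocket protein of DREAM, a complex that sits on promoters of cell cycle genes in resting cells and holds them silent. DREAM reaches DNA through E2F4 and DP proteins, which read E2F elements, and through LIN54 of its MuvB core, which reads CHR elements; G1/S genes tend to carry the E2F element and G2/M genes the CHR. The urothelium is a slowly renewing lining whose cells are mostly out of the cell cycle.

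The promoters of 7 members, printed here for what their letters show beside the peaks, are RefSeq sequences (GRCm38.p6, the assembly of mm10) of the 250 bases before a transcript start, 5′ to 3′ on the strand of the gene. The start is that of the promoter table. For Ect2, Slc34a3 and Brip1 it lies inside the gene as annotated, so the window covers part of the gene and differs from the end used to mark peaks. Capitals mark CHR elements (TTTGAA), E2F elements (TTTGGCGC or TTTCCCGC) and CCAAT boxes (CCAAT), each searched on both strands, so that TTCAAA, GCGCCAAA and ATTGG are matches as well. Slc34a3 is the best ranked STAG2-only end, Tbc1d10b the best ranked p130-only end and Pcx the best ranked shared end. Ect2 and Asf1b are the best ranked shared G2/M and G1/S genes, and Brip1 and Kif15 are p130-only at the stricter threshold described below.
Slc34a3 promoter, chr2:25234235-25234484, minus strand: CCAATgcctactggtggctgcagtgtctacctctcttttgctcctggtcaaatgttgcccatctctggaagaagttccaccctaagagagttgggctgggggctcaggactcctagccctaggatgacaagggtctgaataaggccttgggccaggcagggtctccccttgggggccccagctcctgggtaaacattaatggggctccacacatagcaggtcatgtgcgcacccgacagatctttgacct
Tbc1d10b promoter, chr7:127208469-127208718, minus strand: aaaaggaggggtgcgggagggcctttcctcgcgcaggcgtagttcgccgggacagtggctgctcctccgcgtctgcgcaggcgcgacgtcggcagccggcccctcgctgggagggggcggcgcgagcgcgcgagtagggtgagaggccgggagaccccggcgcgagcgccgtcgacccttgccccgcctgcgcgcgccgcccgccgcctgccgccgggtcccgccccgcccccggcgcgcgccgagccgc
Pcx promoter, chr19:4510222-4510471, plus strand: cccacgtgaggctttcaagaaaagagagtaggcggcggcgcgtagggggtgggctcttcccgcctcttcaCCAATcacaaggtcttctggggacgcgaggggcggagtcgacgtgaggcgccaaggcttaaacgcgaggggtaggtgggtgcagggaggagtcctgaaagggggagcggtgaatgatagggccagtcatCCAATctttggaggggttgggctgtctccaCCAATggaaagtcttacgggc
Ect2 promoter, chr3:27153879-27154128, minus strand: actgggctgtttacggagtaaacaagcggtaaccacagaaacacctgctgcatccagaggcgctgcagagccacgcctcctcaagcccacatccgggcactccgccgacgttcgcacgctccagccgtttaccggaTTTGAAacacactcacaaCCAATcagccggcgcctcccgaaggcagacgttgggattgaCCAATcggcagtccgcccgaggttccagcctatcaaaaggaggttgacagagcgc
Asf1b promoter, chr8:83955444-83955693, plus strand: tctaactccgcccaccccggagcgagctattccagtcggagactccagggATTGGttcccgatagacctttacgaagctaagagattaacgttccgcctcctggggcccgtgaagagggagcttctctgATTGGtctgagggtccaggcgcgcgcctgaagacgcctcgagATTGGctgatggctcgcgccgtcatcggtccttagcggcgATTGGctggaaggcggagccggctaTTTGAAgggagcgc
Brip1 promoter, chr11:86201194-86201443, minus strand: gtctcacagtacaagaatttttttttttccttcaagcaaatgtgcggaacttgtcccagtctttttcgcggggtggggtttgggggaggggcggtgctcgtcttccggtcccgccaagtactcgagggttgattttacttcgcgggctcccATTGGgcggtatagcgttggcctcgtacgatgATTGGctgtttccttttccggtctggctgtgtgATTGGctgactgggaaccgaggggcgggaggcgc
Kif15 promoter, chr9:122950831-122951080, plus strand: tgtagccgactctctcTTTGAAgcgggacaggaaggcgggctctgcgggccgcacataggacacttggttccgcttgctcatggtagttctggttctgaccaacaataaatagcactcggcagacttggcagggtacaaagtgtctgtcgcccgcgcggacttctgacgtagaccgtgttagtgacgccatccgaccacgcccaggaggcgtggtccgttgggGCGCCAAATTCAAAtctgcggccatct

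The Kif15 promoter holds an E2F element at base -27 and a CHR at base -19, counted from that start, with no base between them, and another CHR at base -234. Ect2 has a CHR at base -114 with CCAAT boxes at -96 and -55, and Asf1b has a CHR at base -14 below 4 CCAAT boxes. Pcx and Brip1 have 3 CCAAT boxes each and no match to the CHR or E2F letters. Slc34a3 has 1 CCAAT box at the far end of the window, and Tbc1d10b has no match to any of these 3 motifs. A match is a run of letters and not a measured site.

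Peaks of the 5 libraries were many and mostly weak. The lists held 291705 and 359704 peaks for STAG2-WT and 539200, 359462 and 356035 for p130-WT, all at p up to 0.05. On chromosomes 1 to 19, at q up to 0.01, 25604 and 13193 peaks remained for STAG2-WT, against 393, 886 and 442 for p130-WT. The whole lists overlapped in size between the antibodies. On chromosomes 1 to 19 they did not, with 288674 and 350931 peaks for STAG2-WT, against 506896, 357835 and 354316 for p130-WT (log2 difference -0.33, two-sided exact permutation p = 0.4). Over the 15 libraries, the depth recovered from the lists was a background of 1.28 to 2.03 fragments per base. The 2 thresholds therefore sort genes in different ways, and every class is given at both. Where a list holds no peak, none was detectable at its depth, and a fold enrichment, the authors' value for the summit against background, was not tested between libraries.

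At the deposited threshold the classes made up 3.72% (STAG2-only), 1.16% (p130-only) and 9.50% (shared) of all genes. Each class requires all 5 libraries, and its size grew when fewer were asked for. STAG2-only ends numbered 1541 and 1573 without STAG2-WT replicates 1 and 2, and 1368, 1788 and 1214 without p130-WT replicates 1, 2 and 3. For p130-only ends the counts were 538 and 843, and 534, 606 and 671, in the same order. Shared ends came to 2567 and 2262, and to 3024, 2489 and 3081. At q up to 0.01 in every library of an antibody, against no peak at q up to 0.01 in the other, 2159 genes were STAG2-only (10.4%), 5 were p130-only (0.0242%) and 135 were shared (0.653%). Of the 166 gene ends marked at q up to 0.01 in all 3 p130-WT libraries, 135 (81.3%) were so marked in both STAG2-WT libraries, 26 in 1 of them and 5 in neither. Read from the other antibody, those 135 were 4.98% of the 2713 ends marked in both STAG2-WT libraries. Over all genes 13.1% were so marked in both STAG2-WT libraries and 0.803% in all 3 p130-WT libraries. Of the 2713, 79.6% had no p130-WT peak at q up to 0.01 in any library, against 95.9% of all genes.

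Lack of a strong p130 peak was seldom lack of any p130 peak. Of the 2159 STAG2-only ends at q up to 0.01, 707 (32.7%) had a deposited p130 peak in all 3 p130-WT libraries, against 15.0% of all genes. None in any was found for 95 (4.4%), against 23.9% of all genes, so most genes of any kind had such a peak. With that double condition, q up to 0.01 for one antibody and no deposited peak of the other, 95 STAG2-only ends (0.460% of genes) and 2 p130-only ends (0.00968%), Tbc1d10b and Pcnt, were left. Just inside and outside the q limit lay Arhgap24 and Rnaseh2a for STAG2-only (lowest −log10 q of 2.00 and 1.99) and Kif15 and H2az1 for p130-only (2.05 and 1.84).

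The 10 best ranked STAG2-only ends of the deposited lists were those of Slc34a3, Adm, Efnb2, Ppcs, Npc1, Isoc2a, Radil, Plekhg3, Catsperz and Gm13286. Slc34a3, a sodium-dependent phosphate transporter, had folds of 12.9 and 14.9 in the STAG2-WT libraries and no summit within 500 bp in any p130-WT library. Adm, which encodes the peptide hormone adrenomedullin, had folds of 9.79 and 14.1 in STAG2-WT and no such p130-WT summit. Efnb2, the ligand ephrin-B2, had folds of 8.46 and 10.5 in STAG2-WT and no such p130-WT summit. All 3 were at q up to 0.01 in both STAG2-WT libraries. Weak p130-WT summits lay just outside the window: at 571 bp from Adm in replicate 2 (fold 3.83, −log10 q 1.69), and in replicate 3 at 580 bp from Slc34a3 (fold 3.58) and at 572 bp from Efnb2 (fold 1.98). The nearest p130-WT summits at q up to 0.01 lay 4026, 4017 and 4080 bp from the Slc34a3 end, and over 500000 bp from the Adm and Efnb2 ends. Ppcs, an enzyme of coenzyme A synthesis, had folds of 6.11 and 8.74, and Npc1, the lysosomal cholesterol transporter, had 6.70 and 6.61, again with no p130-WT summit within 500 bp. In the held-out libraries Slc34a3 had folds of 7.56 and 7.59 in STAG2-KO and no peak in p130-KO, so the STAG2 antibody still gave a peak there in urothelium of the KO label.

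The leading STAG2-only ends at q up to 0.01 had STAG2 folds above 10 over weak p130 peaks. Tent5b, a poly(A) polymerase of the TENT5 family, had 14.0 and 24.1 in STAG2-WT, against 2.15, 4.28 and 3.12 in p130-WT. Vcl, which encodes the adhesion protein vinculin, had 12.3 and 18.9 in STAG2-WT, against 1.81, 4.01 and 4.15 in p130-WT. Gins4, a subunit of the GINS complex of the replicative helicase, had 10.3 and 23.9 in STAG2-WT, against 2.79, 3.78 and 3.72 in p130-WT. The groups did not overlap at these ends, which were chosen by their q and fold.

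The p130-only ends at q up to 0.01 were Brip1, Kif15, Pcnt, Tbc1d10b and Zfp689, all 5 marked at the 5′ end of the gene. Brip1, the helicase that binds BRCA1, had a single STAG2-WT peak with a fold of 2.33 (replicate 2), against 8.95, 10.0 and 9.19 in p130-WT. Kif15, a mitotic kinesin, had 1.83 in STAG2-WT replicate 2 and no peak in replicate 1, against 4.65, 4.25 and 4.77 in p130-WT. Pcnt, the centrosome protein pericentrin, had no STAG2-WT summit within 500 bp, against folds of 4.40, 4.90 and 3.86 in p130-WT. Tbc1d10b, of a family of GTPase activators for Rab proteins, likewise had none, against 4.49, 5.09 and 4.74 in p130-WT. Zfp689, a zinc finger gene, had 2.48 and 3.11 in STAG2-WT, against 4.14, 3.83 and 5.64 in p130-WT. Within 500 bp the p130 folds lay above any STAG2 fold in all of them. These ends were chosen by their q in both antibodies, which favours that order, so nothing is read from it.

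STAG2 signal was close by at most of these p130-only ends. The STAG2-WT summits nearest to the Tbc1d10b end lay 535 and 555 bp away, both at q up to 0.01, and the p130-WT summits 459, 470 and 418 bp away. The neighbouring gene Mylpf, whose end is nearer to the same summits, counted as shared (folds of 3.14 and 4.37 in STAG2-WT, against 4.49, 5.09 and 4.74 in p130-WT). At Brip1, STAG2-WT replicate 1 had a summit at q up to 0.01 with a fold of 4.25, 750 bp from the end, in a peak that covers the end. At Kif15 the same library had one with a fold of 3.43 at 554 bp. At Pcnt both STAG2-WT libraries had a peak that covers the end, with summits at 603 and 535 bp, folds of 2.84 and 2.87 and −log10 q of 1.93 and 1.11. With the window at 1000 bp, 3 of the 5 had a STAG2-WT summit at q up to 0.01, and with 2000 bp 4 of 5, against 47.2% and 54.8% of all genes. Of the 2159 STAG2-only ends, 13 had a p130-WT summit at q up to 0.01 within 1000 bp (0.602%, against 4.56% of all genes). The deposited classes depended more on the window: 534 of the 768 STAG2-only ends (69.5%) had a p130-WT summit within 1000 bp and 94.5% within 2000 bp, against 88.7% and 94.3% of all genes. Of the 240 p130-only ends, 62.9% had a STAG2-WT summit within 1000 bp and 84.6% within 2000 bp, against 83.5% and 90.9% of all genes. By the rule of sorting, these classes hold no end with a summit of the other antibody within 500 bp at the same threshold. The shares over all genes include such ends, which by itself lowers a class share beside them. Nothing is therefore read from the order of the class shares and the shares over all genes in these wider windows.

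The other p130-only ends of the deposited lists were weak. The 768 STAG2-only ends had median folds of 3.16 and 2.59, with 365 and 120 of them at q up to 0.01 in STAG2-WT replicates 1 and 2. The 240 p130-only ends had median folds of 2.36, 2.48 and 2.33, with 3, 8 and 10 at q up to 0.01 in p130-WT replicates 1, 2 and 3. Those p130-only medians are near the median of all peaks in the same libraries, 2.27 to 2.31. Usp31, a deubiquitinating enzyme, is an example with folds of 3.11, 3.47 and 3.33 in p130-WT, none at q up to 0.01. Parp1, which adds poly(ADP-ribose) at DNA breaks, had 2.98, 2.84 and 3.14, also none at q up to 0.01.

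**Figure D1:**
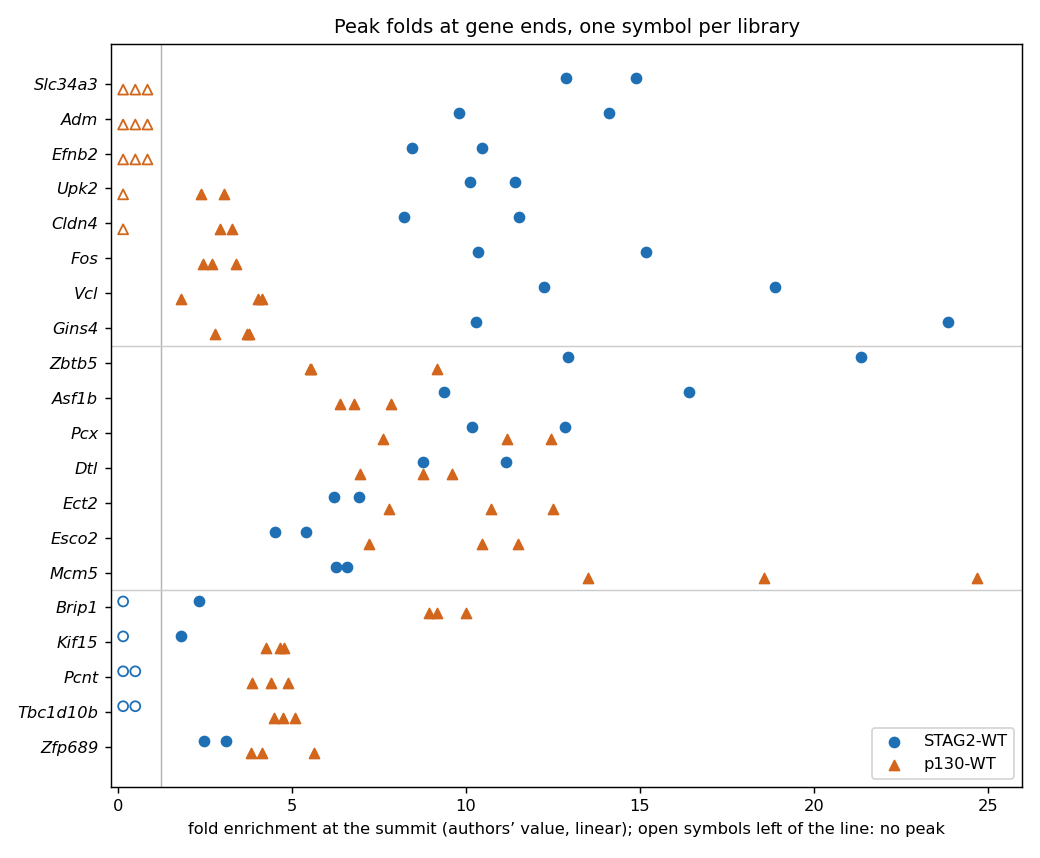
Fold enrichment at the summit (x axis, linear, the authors' values) of the peak within 500 bp of the end of 20 named genes, with circles for the STAG2-WT libraries and triangles for the p130-WT libraries, and open symbols at the left for libraries without a peak. From top to bottom the blocks hold STAG2-only, shared and p130-only ends at either threshold; within the shared block Zbtb5 has its STAG2 folds above its p130 folds and Mcm5 (6.57 and 6.27 for STAG2, 13.5 to 24.7 for p130) the reverse.

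Shared ends with the best ranks over all 5 libraries mixed metabolic, nuclear and cell cycle genes. Pcx, pyruvate carboxylase, had folds of 10.2 and 12.8 in STAG2-WT and 7.62, 12.5 and 11.2 in p130-WT, so the groups overlapped. Asf1b, a histone chaperone of S phase, had 9.36 and 16.4 in STAG2-WT and 6.78, 7.85 and 6.40 in p130-WT. Zbtb5, a zinc finger protein gene, had 12.9 and 21.4 in STAG2-WT and 5.51, 5.56 and 9.17 in p130-WT. Slc25a28, the mitochondrial iron importer mitoferrin-2, had 9.63 and 13.4 in STAG2-WT and 6.19, 8.51 and 9.23 in p130-WT. Ints6 of the Integrator complex had 9.25 and 19.1 in STAG2-WT and 6.88, 6.18 and 5.58 in p130-WT. Casp2 and Tmem139 share one end (folds of 7.92 and 12.5 in STAG2-WT and 12.5, 13.2 and 13.5 in p130-WT), as do Dtl and Ints7, and such pairs cannot be told apart.

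The folds of both antibodies at shared ends are set side by side as a description, since they come from separate lists and batches. Over the 1964 ends of the deposited lists, both STAG2-WT folds lay above all 3 p130-WT folds at 1095 (55.8%), and all 3 p130-WT folds lay above both STAG2-WT folds at 60 (3.05%). Over the 135 ends at q up to 0.01 the first count was 20 (14.8%) and the second 35 (25.9%). Those 135 had to pass q up to 0.01 in all 3 p130-WT libraries, which by itself favours ends with high p130 folds, so nothing is read from the change between the counts. The G1/S genes Mcm3, Mcm4 and Mcm5, subunits of the replicative helicase, were among those 35, as were the G2/M genes Ect2, a driver of cytokinesis, and Top2a, the topoisomerase that untangles sister chromatids. Mcm5 had 6.57 and 6.27 in STAG2-WT, against 13.5, 18.6 and 24.7 in p130-WT. Top2a had 3.45 and 4.65 in STAG2-WT, against 15.8, 12.9 and 18.5 in p130-WT. Ect2 had 6.93 and 6.21 in STAG2-WT, against 10.7, 7.79 and 12.5 in p130-WT. Esco2, which acetylates cohesin in S phase, had 4.53 and 5.42 in STAG2-WT, against 11.5, 7.21 and 10.5 in p130-WT. Asf1b was the single G1/S gene of the 11 shared at this threshold with both STAG2-WT folds on top.

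DREAM targets that fell into a class by deposited peaks were shared, with 1 exception. With deposited peaks, 30 of 59 G2/M genes (50.8%) and 27 of 70 G1/S genes (38.6%) were shared, against 9.50% of all genes. No G2/M gene was STAG2-only or p130-only, and of the G1/S genes Pold3, a subunit of DNA polymerase delta, was the only STAG2-only one (folds of 4.31 and 4.16, no p130-WT peak) and none was p130-only. At q up to 0.01, 4 G2/M genes were shared (Cdca2, Ect2, Ncapd2 and Top2a) and 4 were STAG2-only (Ccnb1, Cdca3, Cenpa and Ckap2l), which is 6.78% STAG2-only, against 10.4% of all genes. Among G1/S genes 11 were shared (Asf1b, Bard1, Cdc6, Dtl, Gins1, Gins2, Mcm3, Mcm4, Mcm5, Mcm7 and Pcna) and 10 were STAG2-only (14.3%), and none of either list was p130-only. The shared genes were 6.78% of the G2/M and 15.7% of the G1/S list, against 0.653% of all genes. At that threshold 12 G2/M and 24 G1/S genes were marked in both STAG2-WT libraries. Of these, 4 and 10 were STAG2-only, against 79.6% of all ends so marked. Without STAG2-WT replicate 2 the STAG2-only counts at q up to 0.01 were 17 G2/M and 20 G1/S genes, and without replicate 1 they were 6 and 12. They were 6 G2/M genes without p130-WT replicate 2 as well. Ccnb1, the mitotic cyclin B1, is one of these STAG2-only calls, with folds of 3.86 and 3.92 in STAG2-WT, against 3.75, 2.84 and 3.64 in p130-WT. With each library left out in turn or the 5′ end alone, 20 to 38 G2/M and 17 to 34 G1/S genes were shared at the deposited threshold, and up to 8 and 7 were p130-only.

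Subunit genes of the 2 complexes were counted in lists of 13 each, too short to read a share closely. Lin52, a MuvB subunit, was shared at q up to 0.01, with folds of 6.16 and 10.4 in STAG2-WT and 5.98, 4.55 and 6.59 in p130-WT. Mybl2, the MYB protein that binds MuvB in cycling cells, was STAG2-only at that threshold. Of 13 DREAM and MuvB subunit genes, 2 were shared with deposited peaks (15.4%, Lin52 and Rbbp4). Of 13 cohesin and CTCF genes 4 were shared (30.8%, Cdca5, Ctcf, Esco2 and Mau2), against 9.50% of all genes. None of either list was in the other classes with deposited peaks. The cohesin count was 1 of 9 with the 5′ end alone and 6 without p130-WT replicate 1, and leaving out any one p130-WT library made 2 DREAM and MuvB genes STAG2-only. Lin54 and Rbl2, which encode LIN54 and p130, were in no class: each had a peak in both STAG2-WT libraries and in p130-WT replicate 2 alone. Stag2 lies on the X chromosome and was not sorted.

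Immediate early and luminal genes had STAG2-only shares above 10.4% at q up to 0.01. Of 27 immediate early genes, the first to be transcribed after a stimulus, 13 (48.1%) were STAG2-only and none was shared or p130-only at q up to 0.01, against 10.4% STAG2-only over all genes. At that threshold 18 of the 27 were marked in both STAG2-WT libraries, against 13.1% of all genes. Of these 18, 13 were STAG2-only, against 79.6% of all ends so marked. The high share thus goes with more STAG2 marks, and not with a rarer p130 mark among them. Fos had folds of 10.4 and 15.2 in STAG2-WT, against 2.71, 3.40 and 2.46 in p130-WT. Klf10 had 7.92 and 12.6 in STAG2-WT, against 2.64, 3.6 and 3.63 in p130-WT. With deposited peaks 11 of the 27 were shared (40.7%, against 9.50% of all genes) and none was STAG2-only or p130-only.

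Of 22 markers of luminal urothelium, the umbrella and intermediate cells, 9 (40.9%) were STAG2-only at q up to 0.01 and none was shared: Cdh1, Cldn4, Ehf, Klf5, Krt19, Krt8, Upk1a, Upk2 and Upk3b. At that threshold 10 of the 22 were marked in both STAG2-WT libraries, against 13.1% of all genes. Of these 10, 9 were STAG2-only, against 79.6% of all ends so marked. Upk2, a uroplakin of the apical plaques, had 10.1 and 11.4 in STAG2-WT, against 2.40 and 3.05 in p130-WT replicates 2 and 3 and no peak in replicate 1. Cldn4, a tight junction claudin, had 8.23 and 11.5 in STAG2-WT, against 3.27 and 2.94 in the same p130-WT replicates. No marker of basal urothelium (13), fibroblasts (12), smooth muscle (10), immune cells (14) or endothelium (10) was in any class at that threshold. These lists are short beside a STAG2-only share of 10.4% over all genes. With each library left out in turn, up to 3 basal, 2 fibroblast, 2 smooth muscle and 2 immune markers were STAG2-only. The luminal count was then 9 to 13, and no endothelial marker was in a class. By deposited peaks 2 of the 22 luminal markers were STAG2-only (Cdh1 and Gata3, 9.09%, against 3.72% of all genes) and 2 were shared (Esrp1 and Klf5). At that threshold Itga6 (basal), Adgre1 and Cd68 (immune) were STAG2-only, Fap (fibroblast) and Cnn1 (smooth muscle) were p130-only, and 2 fibroblast genes and Egfl7 (endothelial) were shared. In bulk libraries, fewer cells with a site and less protein at each site cannot be told apart.

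Ribosomal protein genes and gene clusters are given beside the shares over all genes. Of 74 ribosomal protein genes, 18 (24.3%, against 10.4% of all genes) were STAG2-only and 1, Rps19, was shared at q up to 0.01. At that threshold 25 of the 74 were marked in both STAG2-WT libraries, against 13.1% of all genes. Of these 25, 18 were STAG2-only, against 79.6% of all ends so marked. The 18 became 35 without STAG2-WT replicate 2 and 27 without replicate 1. With deposited peaks 8 were STAG2-only (10.8%, against 3.72% of all genes) and 20 shared (27%, against 9.50%). Rps19 had folds of 5.50 and 5.53 in STAG2-WT and 4.05, 6.06 and 5.33 in p130-WT. Of 39 HOX cluster genes, 5 (12.8%) were STAG2-only and none shared at q up to 0.01, near the 10.4% of all genes, and 14 and 9 were STAG2-only without STAG2-WT replicates 2 and 1. Olfactory receptor genes gave 16 STAG2-only (1.45%), 17 p130-only (1.54%) and 2 shared ends (0.181%) of 1104 with deposited peaks and none at q up to 0.01. Their p130-only share is near the 1.16% of all genes. The STAG2-only and shared ones are below the 3.72% and 9.50% of all genes. With deposited peaks 1 of 18 imprinted genes (Igf2) was p130-only, and of 57 clustered protocadherins 1 was STAG2-only and 1 shared, with none in a class at q up to 0.01. Of 53 genes of the keratin clusters, Krt19 and Krt8 were STAG2-only at q up to 0.01, and Krt73 (STAG2-only) and Krt88 (p130-only) were in a class with deposited peaks.

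**Figure D2:**
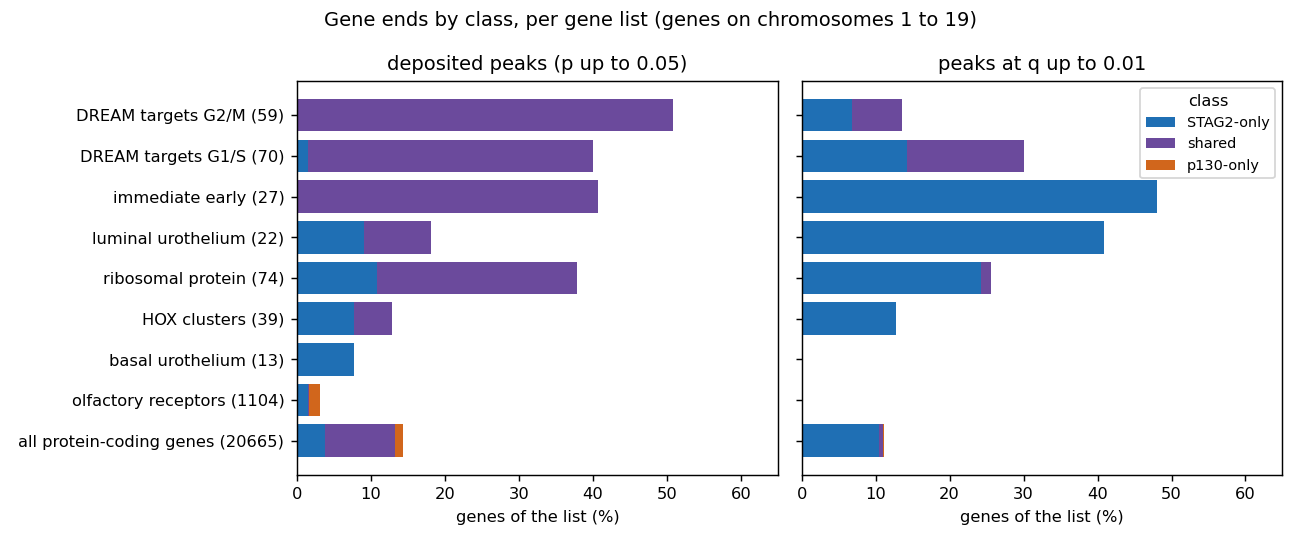
Share of each gene list (x axis, percent of its genes on chromosomes 1 to 19, number in brackets) in the STAG2-only (blue), shared (purple) and p130-only (orange) class, with deposited peaks on the left and peaks at q up to 0.01 on the right. On the left the G2/M, immediate early and G1/S lists reach 50.8%, 40.7% and 38.6% shared, and ribosomal protein genes 27%, against 9.50% of all genes. On the right immediate early and luminal genes reach 48.1% and 40.9% STAG2-only, and no list has a p130-only gene.

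Summits of both antibodies lay close together at the strong shared ends. At the 135 shared ends at q up to 0.01, the median distance between a STAG2-WT and a p130-WT summit was 50 to 71 bp over the 6 pairs of libraries, against 45 bp between the STAG2-WT libraries and 28 to 38 bp between p130-WT libraries. The start of the gene was known for 112 of them, and in each library the strongest peak lay within 500 bp of that start at 111. There the median summit lay 125 and 124 bp upstream of the start in STAG2-WT and 115, 110 and 114 bp upstream in p130-WT. At the 1964 shared ends of the deposited lists the summits of a pair of libraries could lie at opposite ends of a gene, and between antibodies they lay at the same end for 1378 to 1672 genes. Over those genes the median distance between antibodies was 89 to 154 bp, against 83.5 bp between the STAG2-WT libraries (1720 genes) and 124 to 140 bp between p130-WT libraries (1380 to 1552 genes). Peaks differed in width: the medians at the 1964 ends were 1680 and 755 bp in STAG2-WT and 269, 436 and 368 bp in p130-WT, and each STAG2-WT median was above each p130-WT median.

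**Figure D3:**
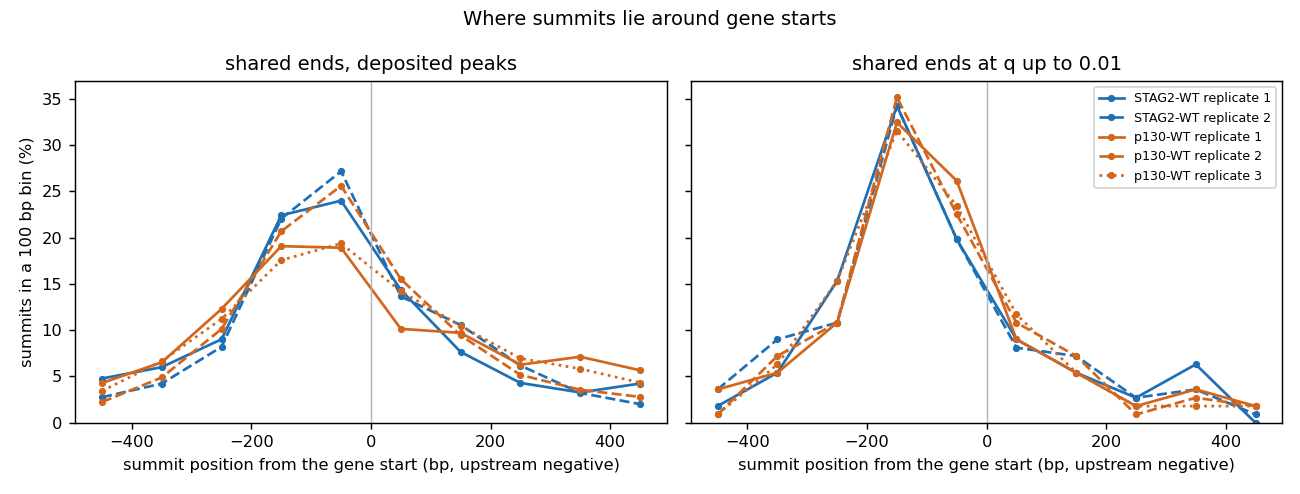
Percent of summits in 100 bp bins (y axis) by distance from the gene start (x axis, upstream negative) at shared ends, one line per library. Only genes whose strongest peak lay at the start are counted, with deposited peaks on the left and peaks at q up to 0.01 on the right. On the right all 5 libraries peak in the same bin from 200 to 100 bp upstream, with 31.5% to 35.1% of their summits.

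Promoter letters were counted at shared and STAG2-only ends at both thresholds. RefSeq promoters of 300 bases, 250 before and 50 after the start, were held for 16457 of the 20665 genes. An E2F element was present in 28 of 112 shared promoters at q up to 0.01 (25%), against 2.18% of 1742 STAG2-only promoters and 2.14% of all. A CHR was present in 22.3% of shared, 8.73% of STAG2-only and 15.9% of all promoters, and a CCAAT box in 75%, 48.5% and 39.1%. The GC box (GGGCGG) was present in 76.8% of shared and 72.6% of STAG2-only promoters, against 47.3% of all. By deposited peaks a CHR was present in 13.1% of STAG2-only and 12.9% of shared promoters, an E2F element in 1.83% and 5.55%, and a CCAAT box in 33.6% and 50.2%, so that the classes were alike in CHR share at that threshold. Of the 193 p130-only promoters of the deposited lists 1.55% held an E2F element, 18.7% a CHR and 29.0% a CCAAT box, and by deposited peaks the median CpG count was 17 for STAG2-only, 22 for shared and 9 for p130-only promoters, against 14 for all. The median GC content was 61.7% for STAG2-only and 62.0% for shared promoters at q up to 0.01, against 56.7% for all. The AP-1 element (TGANTCA) was found in 3.57% of shared, 5.45% of STAG2-only and 7.12% of all promoters, and the CTCF core in none of the shared, 1.26% of the STAG2-only and 0.668% of all. These are shares of letters, given without a test.

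**Figure D4:**
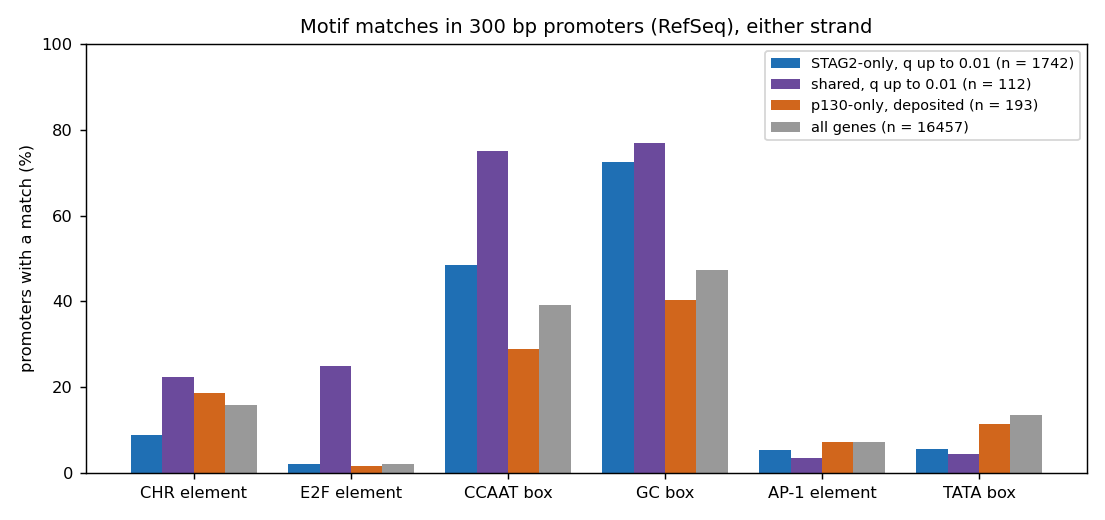
Percent of 300-base RefSeq promoters (y axis) with at least one match on either strand, per motif, for STAG2-only and shared ends at q up to 0.01, p130-only ends with deposited peaks and all genes. The E2F element stands at 25% for shared ends and at 1.55% to 2.18% for the other sets.

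The classes were also read in libraries that the sorting did not use. The STAG2-KO libraries were made with the STAG2 antibody in Stag2-KO urothelium, and they are of batch 1 as the STAG2-WT libraries are. A peak in them does not show that STAG2 was at the site, and where such peaks come from was not tested. The STAG2-only ends of the deposited lists had a peak in 47.4% and 56.6% of cases in the STAG2-KO libraries, against 35.7%, 36.5% and 34.9% in the p130-KO libraries. The p130-only ends had a peak in 30% and 37.9% of cases in STAG2-KO, against 38.3%, 40% and 41.7% in p130-KO. Over all genes the same libraries gave 40.7% and 48.5% in STAG2-KO, against 36.2%, 37.7% and 35.2% in p130-KO. The STAG2-only minus p130-only difference was 18.1 ± 0.939 percentage points (SD, n = 2) in STAG2-KO and -4.32 ± 2.17 (SD, n = 3) in p130-KO. The groups did not overlap, and the difference of 22.4 points had p = 0.1 in a two-sided exact permutation test, the smallest that 2 against 3 libraries can give (0.15 after Benjamini-Hochberg adjustment over 6 tests). It was 12.8 points with classes sorted without STAG2-WT replicate 1 and 1.83 without replicate 2. In the latter setting little of the difference was left and the groups overlapped, so the result rests on having both.

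The batch moved with these values. LIN54 libraries are of batch 1, as STAG2 is, and their STAG2-only minus p130-only difference was 25.3 and 21.4 points in LIN54-KO and 5.31, 11.5 and 6.28 in LIN54-WT, positive in all 5 as in STAG2-KO. What part the batch had in the STAG2 and p130 classes was not tested. The shared ends had a peak in 70.2% and 83.9% of cases in STAG2-KO, against 61.4%, 60.2% and 56.1% in p130-KO, all above the share over all genes in the same library. At q up to 0.01 the 135 shared ends were marked in 35.6% and 72.6% of cases in STAG2-KO, against 96.3%, 78.5% and 74.8% in p130-KO and 90.4%, 93.3% and 87.4% in LIN54-WT. The 2159 STAG2-only ends were so marked in 12.1% and 44.8% of cases in STAG2-KO, against 2.78%, 0.556% and 0.695% in p130-KO and 43.2%, 50.8% and 29.3% in LIN54-WT. Over all genes LIN54-WT marked 10.8%, 13.6% and 7.10% at that threshold, so strong STAG2 ends without strong p130 were often LIN54 ends in these batch 1 libraries.

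**Figure D5:**
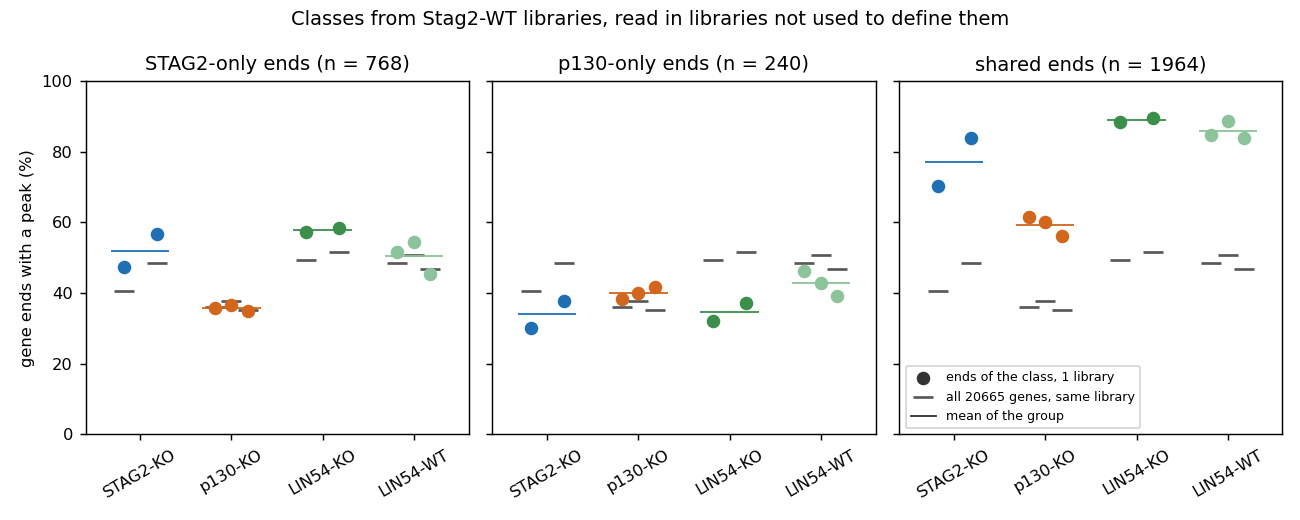
Percent of STAG2-only, p130-only and shared ends (deposited peaks) with a peak in each library that was not used to sort them (points; coloured lines are group means), with the percent over all 20665 genes in the same library as grey dashes. Shared ends lie above the dashes in every group, while STAG2-only ends in p130-KO (34.9% to 36.5%) lie at them.

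With all 5 libraries, distal regions of the STAG2-only class outnumbered p130-only ones at both thresholds; at q up to 0.01 the p130-WT lists held few peaks. Of 11598 distal regions at q up to 0.01, 2273 were STAG2-only (19.6%), 3 were p130-only (0.0259%) and 2 were shared (0.0172%). Of the STAG2-only ones, 407 (3.51% of the 11598) held no deposited p130-WT peak, and by deposited peaks alone the class shares were 1.59%, 0.556% and 0.226%. These deposited counts rest on every library: STAG2-only regions numbered 150075 and 115622 without STAG2-WT replicates 1 and 2, and p130-only regions 22783, 29748 and 29033 without p130-WT replicates 1, 2 and 3. Without each of those p130-WT libraries the STAG2-only regions numbered 22545, 20312 and 19652, fewer than the p130-only ones. Deposited peaks marked 19.5% and 23.9% of the distal regions in STAG2-WT, against 36.3%, 25.8% and 26% in p130-WT. Of the STAG2-only regions at q up to 0.01, 1367 (60.1%) lay inside a gene, the median width was 1221 bp and the median folds were 4.24 and 5.05. The share of deposited peaks at gene ends was 4.04% and 3.58% in STAG2-WT, against 2.17%, 3.07% and 2.52% in p130-WT. The share in distal sites was 68.1% and 69.2% in STAG2-WT, against 72.9%, 73.0% and 74.0% in p130-WT. Neither pair of groups overlapped, at p = 0.1 each in the two-sided exact permutation test (0.15 adjusted). Both differences changed sign at q up to 0.01, and both kept it with the 20000 best peaks per library (15.2 points at gene ends and -30.0 distal). The mean Jaccard overlap of libraries was 0.0593 within and 0.0521 between antibodies (one-sided exact permutation p = 0.4). The single STAG2-WT pair had 0.11, and the p130-WT pairs had 0.0412 to 0.0432, below each pair of unlike antibodies (0.0457 to 0.0574). At q up to 0.01 the means were 0.177 within and 0.0131 between antibodies.

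Of the 2273 STAG2-only distal regions, 17 had a luminal marker as the nearest gene, spread over 10 markers. Of the 22 luminal markers, 10 (45.5%) were the nearest protein-coding gene to at least 1 of the 2273 regions, 17 regions in all, against 7.97% of all genes: Cdh1, Cldn4, Ehf, Gata3, Grhl3, Klf5, Krt19, Krt20, Pparg and Upk1b. Of 27 immediate early genes 8 were (29.6%), with 22 regions, of which Klf6 and Myc had 5 each and Jun 4. Basal markers were above the share over all genes too, at 3 of 13 (23.1%), with 6 regions, of which Itga6 had 4. So were cohesin and CTCF (15.4%), immune (14.3%) and keratin cluster genes (13.2%). Ribosomal protein (5.41%), HOX cluster (2.56%) and olfactory receptor genes (0.453%) were below it. DREAM targets were near the share over all genes, at 3 of 59 G2/M and 6 of 70 G1/S genes. Over all genes Bach2 and Pde4d had the most regions, 8 each. Foxq1, a forkhead transcription factor gene, had 7.

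The 10 best ranked STAG2-only distal regions at q up to 0.01 had STAG2-WT folds of 10.6 or more. The best ranked one at q up to 0.01, chr19:43530134-43531521 (mm10), 6.22 kb from Got1, had folds of 18.7 and 27.0 in STAG2-WT, with p130-WT peaks of 3.88 and 1.98 in replicates 1 and 3. The next, chr2:32487090-32487783, intergenic and 31.96 kb from Naif1, had 15.8 and 23.1 in STAG2-WT and no p130-WT peak. In the held-out libraries that region had 8.32 and 11.0 in STAG2-KO, against 2.23 in p130-KO replicate 3 alone. A region inside Krt78, chr15:101983717-101985006, had 13.6 and 24.7 in STAG2-WT, against 1.85, 2.15 and 2.64 in p130-WT. Among the 10 best ranked regions with deposited peaks, the folds went down to 6.56 in STAG2-WT replicate 1. One of these near Foxq1, 51.4 kb away, chr13:31506070-31507425 had 9.91 and 9.61 in STAG2-WT and no p130-WT peak.

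Distal p130 sites at q up to 0.01 in all 3 p130-WT libraries were rare. The one with p130-WT folds above 10 was shared: chr9:82972476-82974893, inside Phip, a gene for a bromodomain protein, with folds of 6.68 and 3.84 in STAG2-WT, against 13.1, 11.97 and 11.0 in p130-WT, and of 19.2, 11.3 and 16.5 in p130-KO. The other shared region at q up to 0.01, nearest to Csf2ra on chromosome 19, had 3.18 and 3.30 in STAG2-WT, against 1.83, 2.06 and 2.74 in p130-WT. The 3 p130-only regions lay nearest to Zc3h7a, Gtpbp4 and Ly6c2 and joined low folds to high −log10 q: the one near Ly6c2 had folds of 2.14, 1.88 and 1.95 with −log10 q of 48.6, 25.3 and 28.9. All 3 also had a peak in LIN54-WT replicates 1 and 2. In the distal classes of the deposited lists, the held-out difference was 9.48 ± 3.96 points (SD, n = 2) in STAG2-KO and 0.251 ± 0.474 (SD, n = 3) in p130-KO (difference 9.23, two-sided exact permutation p = 0.1, 0.15 adjusted), and it was 2.45 and 2.69 with classes sorted without STAG2-WT replicate 1 and without replicate 2.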

How the data were processed

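Data were CUT&RUN peak lists of mouse urothelium. The submitters' processing notes name build mm10 and the tools MACS2, Bowtie2 and bcl2fastq; versions, settings and use of a control library are not given in the sources used here. The deposited lists give, per peak, a fold enrichment (a ratio to background), a −log10 p-value and a −log10 q-value, all the authors' values. Folds of different lists are set side by side as a description only, since no scaling between libraries is known. The 2 pMNase samples were not used here.

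Peaks on chromosomes 1 to 19 were kept. Gene coordinates are RefSeq (GRCm38.p6), with strand and promoter for 79.6% of the genes. Distal regions are peaks of the 5 libraries merged where they share at least 1 bp, 5000 bp or more from any of 47042 genes of all types. Members, gene lists, tests and alternatives were chosen with earlier results of these data known. Named genes are the 10 best ranked by mean fold rank per class and up to 3 per list and class; others named in counts, such as Mcm3, Mcm4 and neighbouring genes, were chosen after their values were seen. The library was the unit of test. Two-sided exact permutation tests (one-sided for the Jaccard overlap) had p of at least 0.1 and cannot reach 0.05. They rank the observed difference among all relabelings of these libraries, and they cannot separate antibody from batch. Depth is known only as background coverage recovered from fold and p, with 99.995% to 100% of summits giving whole counts to within 0.0005 on the log10 scale.

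Alternatives were q up to 0.01, the 20000 best peaks, windows of 250 and 1000 bp, distal from 10000 bp, summits extended by 250 bp, each library left out, replicate number as a block and, added later, the 5′ end alone. The class code was tested on simulated data. Software was SciPy 1.17.1, pandas 2.3.3, NumPy 2.4.6 and Matplotlib 3.10.9 under Python 3.11.15.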

Additional observations from a re-analysis of the deposited data

How the results depend on the processing

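At q up to 0.01 the class sizes moved to 2159 STAG2-only, 5 p130-only and 135 shared ends and to 2273, 3 and 2 distal regions. With no deposited peak of the other antibody they were 95, 2 and 135 ends and 407, 3 and 2 regions. With the 20000 best peaks per library they were 1370, 20 and 283 ends and 1906, 9 and 10 regions. The 250 bp window gave 156 p130-only and 636 shared ends, the 1000 bp window 435 STAG2-only and 5229 shared, and the 5′ end alone 100 p130-only and 1008 shared. Extended summits gave 9713 p130-only and 3564 shared regions. At q up to 0.01, 3 differences changed sign: log2 peak number (5.10), percent of peaks at gene ends (-38.1) and percent distal (16.9); the cause was not tested. Leaving out each library gave the ranges 1214 to 1788 STAG2-only, 534 to 843 p130-only and 2262 to 3081 shared ends; 19652 to 150075, 6967 to 29748 and 3435 to 5275 regions; -0.47 to -0.16 in log2 peak number; 0.995 to 1.47 and -5.21 to -4.08 percentage points at gene ends and distal; -0.0121 to 0.0258 in Jaccard overlap; and 1.83 to 25.4 and 2.45 to 12.03 points in the held-out libraries (ends, regions). The Jaccard difference changed sign without either STAG2-WT library (-0.0072 and -0.0121), which leaves no STAG2 pair. The labels do not say whether replicate numbers pair samples, and the correlations of deviations were 0.0221 and 0.0197, which cannot settle it. With replicate numbers as a block, the differences were -0.42, 1.19, -4.31, 21.2 and 9.44, all of the same sign as before. Each had p = 0.5 in a two-sided exact sign-flip test, the smallest it can give here. Its side of the threshold was therefore fixed in advance. At q up to 0.01 the p130-WT lists held 393 to 886 peaks, against 25604 and 13193 for STAG2-WT. Background coverage was 1.74 and 1.36 fragments per base in STAG2-WT, against 1.63, 1.44 and 1.48 in p130-WT. What part depth had in the few p130 peaks was not tested.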
